A study of Mus musculus with 12 samples.

Results

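Glul encodes glutamine synthetase, the enzyme that joins ammonia to glutamate to make glutamine, and Slc38a1 encodes SNAT1, a sodium-coupled transporter that carries glutamine across the plasma membrane. Every probe that the array's annotation assigns to these genes by symbol was taken, which gave 2 of 5723 named genes and 3 of 8734 probes, probe 1301 for Slc38a1 and probes 2342 and 6628 for Glul. All 3 had a value on each of the 10 arrays used. The genes were chosen by their measured response to interleukin-1β in wild-type glia, where Slc38a1 and a Glul probe were lower, so the values of that comparison, and the differences between genotypes that rest on its arrays, are given as a description with no test.

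In the brain, astrocytes take up the glutamate released at synapses, convert it to glutamine through glutamine synthetase and release the glutamine, which neurons take up and turn back into glutamate. Glutamine synthetase is known as an astrocyte enzyme and is a common marker of these cells. Members of the Slc38 family move glutamine in and out of cells, and SNAT1 is best known for glutamine uptake.

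The cells were primary mixed glia, either wild-type or IL-1R1-/-, the latter without the signalling receptor for interleukin-1. Both genotypes were kept for 10 to 12 days after isolation, then exposed for 4 hours to rrIL-1β at 10 ng/ml or to vehicle, with paired treatments in independent biological replicates, and their radio-labelled cDNA was hybridised to 12 arrays, 3 for each of 4 groups. The treatment of 1 array is written as IL-1β in place of rrIL-1β. The labels name neither the mouse strain, the age of the animals nor the number pooled in a culture.

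The pair of IL-1R1-/- replicate 3 was left out because its columns repeat other columns: 6531 of 6584 shared probes stood at 1 ratio (within 1e-04 on the log2 scale) to IL-1R1-/- vehicle replicate 1, and 5959 of 5982 to wild-type vehicle replicate 1. None of the 3 probes had a value in that pair. That leaves 3 wild-type and 2 IL-1R1-/- culture pairs, whose number limits the precision, with median intensities of 4649 to 60399 per array. The genotypes overlapped at the Il1r1 probe, with log2 intensities of 13.86 to 14.17 over the IL-1R1-/- arrays and 13.73 to 15.03 over the wild-type arrays; whether the probe reads a stretch that the deletion removed is unknown here. Few markers of the labelled mixed glia could be followed on all 10 arrays. Of 21 microglia and macrophage markers 7 could, among them Itgam and Cd68, at a median percentile of 91.5 of all tested probes. Of 22 astrocyte markers other than Glul only 3 could, namely Sox9 and Id4 at the 81.4 and 74.6 percentile and the dim Slc1a2, while Gfap and Aqp4 were not analysed here.

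Of the 2 genes Glul matched a promoter in RefSeq (GRCm38.p6), and it is shown so that the letters of the gene's control region stand beside its values. The sequence runs from 250 bases before to 50 bases after the transcription start at chr1:153899679-153899978, plus strand, and the capitals mark the CCAAT boxes found in it.

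Glul promoter: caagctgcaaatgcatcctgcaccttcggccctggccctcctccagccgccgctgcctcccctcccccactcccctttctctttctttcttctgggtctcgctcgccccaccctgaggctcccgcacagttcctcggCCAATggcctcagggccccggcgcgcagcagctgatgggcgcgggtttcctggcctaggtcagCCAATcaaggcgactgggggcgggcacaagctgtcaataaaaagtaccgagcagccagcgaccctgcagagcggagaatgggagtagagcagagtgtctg

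CCAAT, the binding motif of the general factor NF-Y, occurred at positions -113 to -109 and -50 to -46 from the start, and GGGCGG, the core of an Sp1 site, at -33 to -28, with no overlap. Searched on both strands, CCAAT was present in 37.4% of 32851 promoters of this length (in 11.7% with 2 or more matches) and GGGCGG in 35.7%. An NF-κB motif (in 1.63% of promoters), the AP-1 pattern TGANTCA (7.81%), the STAT pattern TTCNNNGAA (8.3%) and TATAAA (13.6%) were not found in this window. A match describes the letters alone.

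Slc38a1 was lower with IL-1β in each wild-type culture and was not lower in either IL-1R1-/- culture after normalization. The log2 intensities given from here on were quantile-normalized between arrays unless stated. In wild-type vehicle glia the Slc38a1 probe stood at 16.26, 15.96 and 16.27 in replicates 1, 2 and 3. With IL-1β it stood at 15.37, 14.99 and 15.05 in the same order. All 3 IL-1β arrays lay below all 3 vehicle arrays, which was true of 7.39% of the 5713 probes with a value on all 10 arrays. The mean difference was -1.03 ± 0.18 (log2, SE of the fit, n = 3 pairs), or 2.04-fold lower, with -0.89, -0.97 and -1.22 in the 3 cultures, and 0.175% of all probes had a lower mean difference. In limma 6.18% of all probes were called in this comparison, 1.63% lower and 4.55% higher; the gene was chosen from it, so nothing is read from these shares. In such bulk samples fewer cells of a type and less RNA per cell cannot be told apart.

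In IL-1R1-/- glia Slc38a1 did not pass the test. The vehicle arrays stood at 15.35 and 16.02 in replicates 1 and 2, and the IL-1β arrays at 15.94 and 16.19. Each culture was higher with IL-1β, by 0.58 and 0.17, and the ranges of the groups overlapped. The mean difference was 0.38 ± 0.22 (log2, SE, n = 2 pairs; 95% interval -0.09 to 0.84; limma adjusted p = 0.715, Benjamini-Hochberg over 5713 probes). For IL-1β in this genotype 0 of 5713 probes (0%) passed in limma, 434 had an unadjusted p under 0.05, and limma called 177 with median centring, where Slc38a1 was not among them.

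The scaling mattered for the IL-1R1-/- value. In the deposited intensities the IL-1β array had 1.29 times the vehicle intensity of Slc38a1 in IL-1R1-/- replicate 1 and 0.786 times in replicate 2, log2 ratios of 0.37 and -0.35. The 10% brightest probes, to which Slc38a1 belongs at the 93.5 percentile, had median log2 ratios of -0.22 and -0.46 in these cultures before normalization, against -0.02 and -0.04 for all probes. Quantile normalization takes such a shift of bright probes out and median centring does not, and the mean difference was -0.02 with median centring. In the wild-type cultures the deposited Slc38a1 intensity with IL-1β was 0.474, 0.689 and 0.458 times that with vehicle, while the brightest probes had medians of -0.02, 0.08 and -0.08 on the log2 scale.

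**Figure D1:**
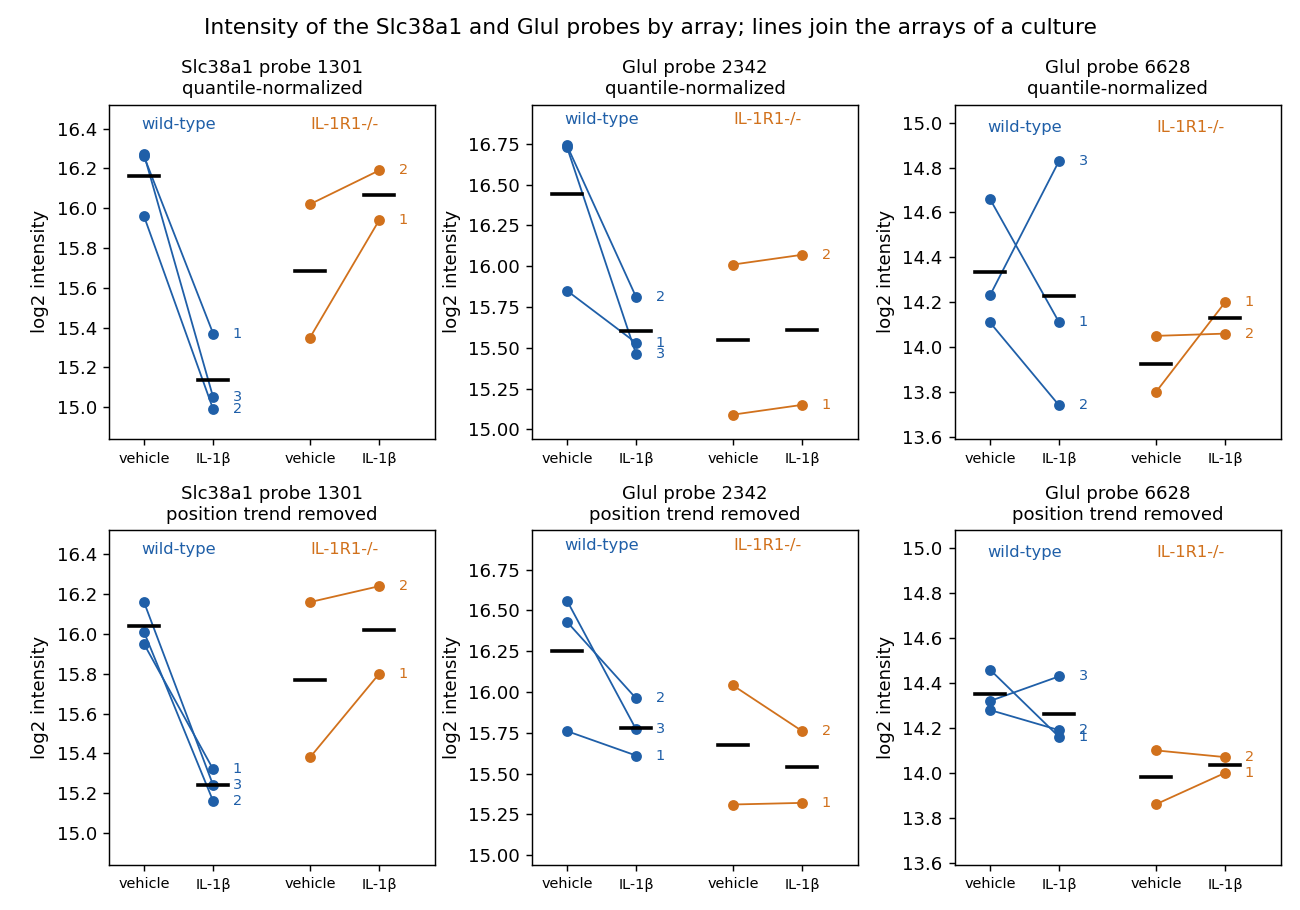
Log2 intensity (vertical axis) of the Slc38a1 probe and both Glul probes on 10 arrays, by treatment (horizontal axis) and genotype, with quantile normalization (top) and with the position trend removed (bottom); points are arrays, lines join the arrays of a culture, numbers are replicates and black bars are group means. Slc38a1 is lower with IL-1β in 3 of 3 wild-type cultures in both rows, Glul probe 2342 likewise but with overlapping groups in the bottom row, and Glul probe 6628 has wild-type cultures that move apart.

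Glul gave unlike values at its probes. At probe 2342 the wild-type vehicle arrays stood at 15.85, 16.74 and 16.73 in replicates 1, 2 and 3, and the IL-1β arrays at 15.53, 15.81 and 15.46. The IL-1β arrays again lay below all vehicle arrays, as at 7.39% of the 5713 probes, although the closest arrays, 15.81 and 15.85, nearly met. The mean difference was -0.84 ± 0.20 (log2, SE, n = 3 pairs), or 1.79-fold lower, and it was uneven over the cultures, at -0.33, -0.93 and -1.27. Without wild-type replicate 3 it was -0.63, and 0.455% of all probes had a lower mean difference.

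The second Glul probe, 6628, had wild-type cultures that went both ways. Its wild-type vehicle arrays stood at 14.66, 14.11 and 14.23, and its IL-1β arrays at 14.11, 13.74 and 14.83. Replicates 1 and 2 were lower with IL-1β, by 0.55 and 0.37, and replicate 3 was higher, by 0.61, so the groups overlapped. The mean was -0.10 ± 0.22 (log2, SE, n = 3 pairs), which was 0.12 without wild-type replicate 1, 0.03 without replicate 2 and -0.46 without replicate 3. The probe is dim: its mean lay at the 34.7 percentile of all tested probes, and it ranked between the 11.4 and 73.4 percentile on single arrays. Across the 10 arrays, which share cultures and scaling, the Glul probes had r = 0.00, and r = 0.53 with the position trend removed. The sources used here do not say which parts of the Glul transcript the probes read.

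Neither Glul probe passed in IL-1R1-/- glia. Probe 2342 stood at 15.09 and 16.01 in the vehicle arrays and at 15.15 and 16.07 with IL-1β. The cultures differed from each other by far more than the treatments did, with SDs of 0.65 in either group, and the mean difference was 0.06 ± 0.24 (log2, SE, n = 2 pairs; 95% interval -0.46 to 0.57; limma adjusted p = 0.964). In the deposited intensities its IL-1β array had 0.928 and 0.736 times the vehicle intensity, log2 ratios of -0.11 and -0.44 beside -0.22 and -0.46 for the brightest probes, and with median centring the mean difference was -0.31. Probe 6628 stood at 13.80 and 14.05 with vehicle and at 14.20 and 14.06 with IL-1β, a mean difference of 0.21 ± 0.27 (log2, SE, n = 2 pairs; 95% interval -0.36 to 0.79; limma adjusted p = 0.88).

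Set side by side, the response of Slc38a1 in wild-type glia was lower than that in IL-1R1-/- glia by a log2 difference of -1.40 ± 0.28 (SE, n = 3 and 2 pairs). For Glul it was -0.90 ± 0.31 at probe 2342 and -0.31 ± 0.35 at probe 6628. With median centring the value was -0.91 for Slc38a1, -0.43 for probe 2342 and -0.37 for probe 6628. At Slc38a1 and at Glul probe 2342 each of 3 wild-type cultures was lower and each of 2 IL-1R1-/- cultures higher with IL-1β, a pattern that 7.67% of all probes had. With a trend over the probe order removed, Slc38a1 kept it and Glul probe 2342 did not, where 3.90% of all probes had it. These differences hold the wild-type response that chose the genes and were not tested.

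**Figure D2:**
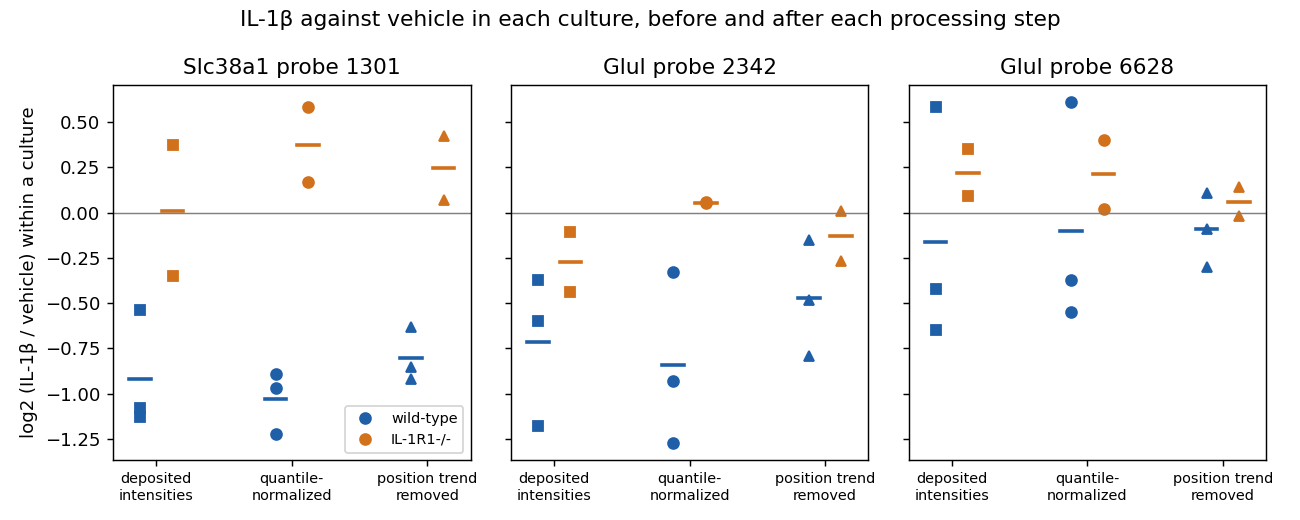
Log2 ratio of IL-1β over vehicle within each culture (vertical axis) for the 3 probes, from the deposited intensities, after quantile normalization and with the position trend removed (horizontal axis); each point is a culture, wild-type (n = 3) or IL-1R1-/- (n = 2), and bars are means. The Slc38a1 wild-type points stay between -1.22 and -0.54 throughout, and some IL-1R1-/- points of Slc38a1 and Glul probe 2342 cross 0 between the steps.

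Fold changes on these arrays followed the order of the probes. In wild-type glia the mean difference of a probe correlated with that of the next probe at r = 0.636 and, after a smooth trend over an inferred plate layout was subtracted, at 0.091; neighbouring probes are not independent. The 40 tested probes nearest to Slc38a1 had a median difference of -0.31 in wild-type glia, and 0 of them was lower than Slc38a1. Those nearest to Glul probe 2342 had a median of -0.28, with 1 of 40 lower, and those nearest to probe 6628 had 0.07. In IL-1R1-/- glia the medians of the neighbours were 0.11 for Slc38a1, 0.30 for Glul probe 2342 and -0.02 for probe 6628. Probe 2342, at 0.06, lay below its neighbours' median there, with 7 of 40 lower, and Slc38a1, at 0.38, lay above, with 37 of 40 lower.

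With the trend removed Slc38a1 differed by -0.63, -0.85 and -0.92 in wild-type replicates 1, 2 and 3. The mean was -0.80 ± 0.13 (log2, SE, n = 3 pairs), with 0.123% of all probes lower, and the arrays of the groups still did not overlap, as for 4.10% of all probes. Glul probe 2342 differed by -0.15, -0.48 and -0.79, a mean of -0.47 ± 0.15, with 1.91% of all probes lower, and its groups now overlapped. Probe 6628 had -0.30, -0.09 and 0.11, a mean of -0.09 ± 0.13. The difference was thus smaller at both bright probes, and the wild-type replicate 3 value of probe 6628 moved from 0.61 to 0.11.

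The trend-removed difference in IL-1R1-/- glia was 0.25 ± 0.16 for Slc38a1 (log2, SE; 95% interval -0.10 to 0.60; limma adjusted p = 0.884). At Glul probe 2342 it was -0.13 ± 0.18 (95% interval -0.52 to 0.26; limma adjusted p = 0.991), with 0.01 and -0.27 in the cultures, and at probe 6628 it was 0.06 ± 0.16 (-0.29 to 0.41; limma adjusted p = 0.996). The sign at Glul probe 2342 thus turned. The difference of the response between genotypes became -1.05 ± 0.21 for Slc38a1, -0.34 ± 0.23 for Glul probe 2342 and -0.15 ± 0.20 for probe 6628.

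**Figure D3:**
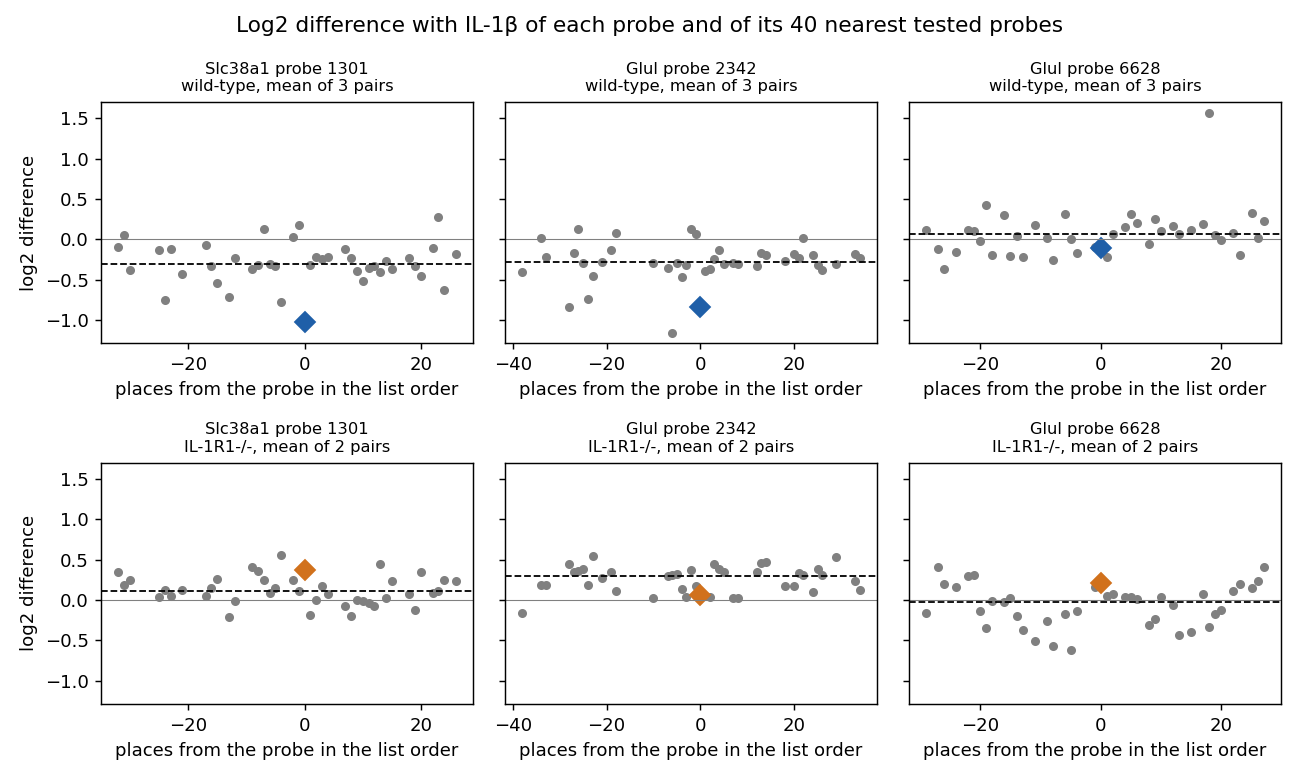
Mean log2 difference with IL-1β (vertical axis) of each member probe (diamond) and its 40 nearest tested probes (grey points) against their distance in places in the list order (horizontal axis), in wild-type (top) and IL-1R1-/- glia (bottom); dashed lines are the medians of the grey points. The wild-type neighbours of Slc38a1 and Glul probe 2342 centre on -0.31 and -0.28, and both diamonds lie below them.

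The levels of the genes in the 4 groups were then put in order, for each probe by itself. Slc38a1 was highest in wild-type vehicle glia (mean log2 16.16 ± 0.18 SD, n = 3), followed by IL-1R1-/- glia with IL-1β (16.06 ± 0.18, n = 2) and with vehicle (15.69 ± 0.47, n = 2), and lowest in wild-type glia with IL-1β (15.14 ± 0.21, n = 3). The 3 higher groups overlapped each other. The lowest group stood apart from wild-type vehicle and from IL-1R1-/- glia with IL-1β, and it overlapped the lower IL-1R1-/- vehicle array, 15.35.

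Glul probe 2342 was highest in wild-type vehicle glia at 16.44 ± 0.51 (SD, n = 3). The other groups had close means, at 15.61 ± 0.65 and 15.55 ± 0.65 in IL-1R1-/- glia with IL-1β and vehicle (n = 2 each) and 15.60 ± 0.18 in wild-type glia with IL-1β (n = 3), and these overlapped each other. The highest group stood above wild-type glia with IL-1β and overlapped both IL-1R1-/- groups. Probe 6628 ran from 14.33 ± 0.29 in wild-type vehicle glia through 14.23 ± 0.56 with IL-1β to 14.13 ± 0.10 and 13.92 ± 0.17 in IL-1R1-/- glia with IL-1β and vehicle. Neighbours in this order overlapped or nearly met. The highest IL-1R1-/- array with vehicle, 14.05, and the lowest with IL-1β, 14.06, were almost equal, so nothing is read from the order of these groups.

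Between genotypes the levels are also given as a description with no test, since they rest on wild-type arrays of the comparison that chose the genes. With vehicle Slc38a1 differed by -0.48 ± 0.25 (log2, IL-1R1-/- minus wild-type, SE, n = 2 and 3). Glul probe 2342 differed by -0.89 ± 0.34 and probe 6628 by -0.41 ± 0.32. With median centring these values were -0.11 for Slc38a1, -0.53 for probe 2342 and -0.41 for probe 6628. Both IL-1R1-/- arrays lay below all wild-type arrays at probe 6628, as at 13.1% of all probes, but not at the other probes. The same held for probe 6628 with the trend removed, where 10.9% of all probes had it, and the differences then were -0.27, -0.58 and -0.38 in the same order. Over all probes limma called 0.0175% in this comparison.

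Under IL-1β, where the low wild-type arrays that chose the genes enter, Slc38a1 was higher in IL-1R1-/- glia by 0.93 ± 0.25 (log2, SE, n = 2 and 3). All wild-type arrays lay below both IL-1R1-/- arrays, as at 8.93% of all probes. Glul differed by 0.01 ± 0.34 at probe 2342 and -0.09 ± 0.32 at probe 6628. With the trend removed Slc38a1 had 0.78 ± 0.21. Over all probes limma called 0.0700% in this comparison.

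Among the other genes that make, use or carry glutamine and glutamate, 1 transcript passed the test in wild-type glia. Of 59 such genes 24 had a probe with a single symbol and 15, with 19 probes, were on all 10 arrays. In wild-type glia 1 of 19 probes was called higher and 0 lower, where 4.55% and 1.63% of all probes were, and the median log2 difference was -0.03 against -0.04 for all probes. Of these 19 probes 0 passed in limma in IL-1R1-/- glia (2 at an unadjusted p under 0.05), with a median of 0.09 against 0.01.

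The called probe belonged to Slc1a5, which encodes ASCT2, an exchanger of neutral amino acids that also carries glutamine. Slc1a5 stood at 14.73, 14.14 and 14.41 in wild-type vehicle glia and at 16.08, 15.75 and 14.99 with IL-1β. It rose in 3 of 3 cultures, by 1.18 ± 0.20 (log2, SE, n = 3 pairs, limma adjusted p = 0.00984). It was higher in both IL-1R1-/- cultures as well, by 0.68 and 0.67, a mean of 0.67 ± 0.25 that did not pass (limma adjusted p = 0.601). The difference of its response between genotypes did not pass either (limma adjusted p = 0.503). With the position trend removed its wild-type difference was 0.59 and no longer passed (limma adjusted p = 0.207; 0.298% of all probes were then called higher), and the call was also lost without wild-type replicate 1 or 2.

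Other transporters had smaller differences in wild-type glia. Slc38a4, a further member of the Slc38 family, had -0.12, and Slc7a7, a subunit of an exchanger of cationic and neutral amino acids, had -0.03 and 0.28 at its probes. Slc1a2, the main glutamate uptake carrier of astrocytes, had 0.10 in wild-type glia and -0.71 ± 0.25 in IL-1R1-/- glia (log2, limma adjusted p = 0.601), the latter from -1.20 and -0.23 in the cultures. With probes that have gaps included, further list genes could be fitted on 2 of 3 wild-type pairs, and none of these passed. Slc3a2, the heavy chain of several amino acid exchangers, differed by -0.54 ± 0.27 (limma adjusted p = 0.245) and Slc25a13 by -0.04. Among the enzymes Ctps2 had 0.76 ± 0.24 (limma adjusted p = 0.0674), Aldh18a1 0.12 and Gad1 0.05, while Pfas had -0.41 and Bcat1 -0.35. Slc38a2, Slc38a3 and Slc1a3 were not analysed here.

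No tested enzyme of the list passed in either genotype. Psat1, the serine synthesis aminotransferase that takes its amino group from glutamate, had the lowest wild-type value, -0.51 ± 0.18 (log2, SE, limma adjusted p = 0.102), with -0.35, -0.78 and -0.41 in the cultures, and -0.55 with the trend removed. Gfpt1, which spends glutamine to make hexosamines, had -0.36 in wild-type and -0.47 in IL-1R1-/- glia. Its wild-type value came from replicate 2, at -1.29 beside 0.14 and 0.06, and was 0.10 without it. Glud1, glutamate dehydrogenase, had -0.32 and -0.04, and Asns, asparagine synthetase, had -0.25 and -0.02, the former 0.12 without wild-type replicate 3. At the upper end Bcat2, a branched-chain aminotransferase, had 0.44 and 0.20, and Gclm, a subunit of the enzyme that starts glutathione synthesis, had 0.44 and 0.35. Gpt, an alanine aminotransferase, had 0.15 and -0.04, and Ppat, the glutamine-using first enzyme of purine synthesis, had 0.06 and -0.13. With the trend removed the wild-type values were -0.34 for Gfpt1, -0.12 for Glud1, 0.06 for Asns, 0.05 for Bcat2, 0.15 for Gclm, 0.12 for Gpt and 0.23 for Ppat.

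**Figure D4:**
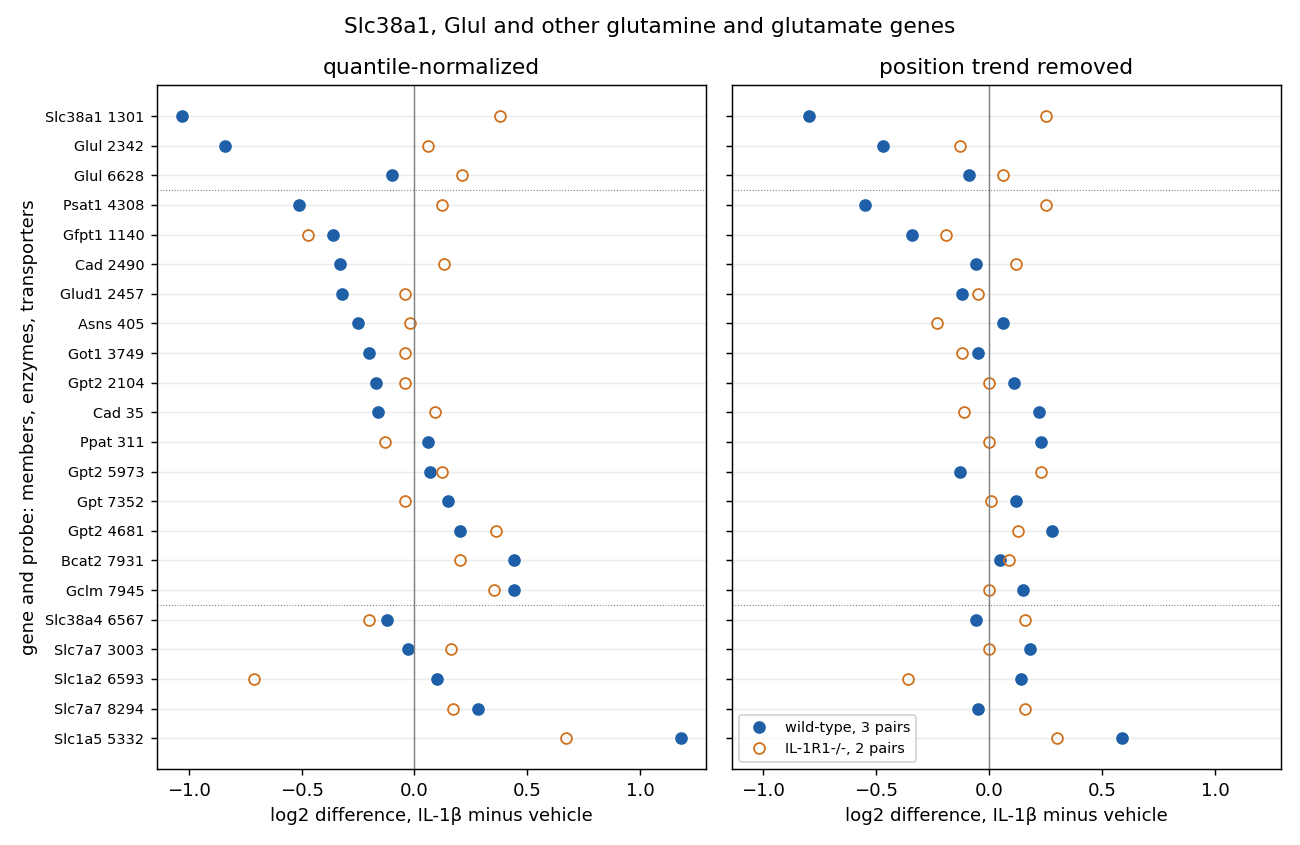
Log2 difference of IL-1β minus vehicle (horizontal axis) in wild-type glia (filled, 3 pairs) and IL-1R1-/- glia (open, 2 pairs) for Slc38a1, Glul and the 19 probes of other glutamine and glutamate genes (vertical axis), with quantile normalization (left) and with the position trend removed (right). Slc38a1 and Glul probe 2342 hold the lowest wild-type values on the left, at -1.03 and -0.84, and Slc1a5 the highest, at 1.18. The 2 genes were chosen from this comparison, so nothing is read from their rank. On the right Psat1, at -0.55, lies below Glul probe 2342, at -0.47.

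The summed level of the 3 astrocyte markers was lower with IL-1β in wild-type glia, where only Id4 of the 3 was called. The summed normalized intensity of Id4, Sox9 and Slc1a2 was 76862 to 136108 in wild-type vehicle glia and 56735 to 68497 with IL-1β. In IL-1R1-/- glia it was 85117 to 98798 and 68556 to 93142, which overlap. Of these 3 markers 1, Id4, fell past the threshold in wild-type glia (log2 -1.60, limma adjusted p = 8.00e-04), where 1.63% of all probes were called lower. Sox9 had -0.20 and Slc1a2 0.10. With the position trend removed Id4 had -1.28 (limma adjusted p = 0.00158), Sox9 -0.63 (limma adjusted p = 0.113) and Slc1a2 0.14. The part of these markers in the Glul and Slc38a1 values was not tested. The 7 microglia and macrophage markers summed to 356440 to 365249 in wild-type vehicle glia and 272921 to 374173 with IL-1β, which overlap. Of these 0 of 7 passed in limma (2 at an unadjusted p under 0.05), where 6.18% of all probes were called. Their median log2 difference was -0.25, against -0.04 for all probes, with 6 of 7 negative. In IL-1R1-/- glia the sum was also lower with IL-1β, at 333512 to 379312 against 380896 to 479051 with vehicle, though the closest arrays nearly met. There 3 of 7 were negative, with a median of 0.08 against 0.01, and 0 passed in limma (3 at an unadjusted p under 0.05). Of 7 endothelial and mural probes 2 rose in wild-type glia, where 4.55% of all probes were called higher: Emcn by 0.84 (log2, limma adjusted p = 0.0187) and 1 of 3 Rgs5 probes by 0.69 (limma adjusted p = 0.0389). With the trend removed these had 0.30 and 0.13 and did not pass (limma adjusted p = 0.444 and 0.811), where 0.403% of all probes were called. Their summed intensity was 97484 to 144610 with vehicle and 119855 to 185425 with IL-1β, which overlap. Of the oligodendrocyte, neuron and fibroblast markers, with 4, 3 and 1 tested probes, 0 passed in limma (1, 0 and 1 at an unadjusted p under 0.05).

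Probes with the most similar pattern were found by Pearson's r over the 10 arrays with the trend removed, as a description in which arrays of a culture are not independent. For Slc38a1 these were Kmt2e, a chromatin regulator (r = 0.91, and 0.94 without trend removal), Lpar1, a lysophosphatidic acid receptor (0.89 and 0.97), Mrps18c, a mitochondrial ribosomal protein (0.89 and 0.85), Ulk2, an autophagy kinase (0.87 and -0.20), and Odf2l (0.87 and 0.89). For Glul probe 2342 they were Eef1g, a translation elongation factor (0.95 and 0.62), the fatty acid transporter Slc27a4 (0.94 and 0.98), the small GTPase Rab31 (0.94 and 0.84), Pdha1 of the pyruvate dehydrogenase complex (0.93 and 0.64) and Cox6b1 of cytochrome c oxidase (0.91 and 0.63). For probe 6628 they were Srp72, Arap1, Ess2, Ddx51 and Cdc5l (0.87 to 0.93), of which Srp72 kept r = 0.91 and Ddx51 had -0.04 without trend removal. The lists of the Glul probes held no gene in common, but with only 5 probes in each list this cannot show whether the Glul probes agree.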

How the data were processed

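The deposited values are linear spot intensities of 1-colour arrays; per the labels' protocols, TRIzol RNA was DNase-treated and reverse transcribed into 33P-labelled cDNA. How the authors corrected, normalized or filtered these deposited intensities, and with which software, the sources used here do not say. From the values, the arrays of a culture had medians within 0.066 of each other (log2).

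Of 8734 probes 7153 carry 1 symbol in the platform annotation; 7080 of these were found in RefSeq (GRCm38.p6) by gene ID, with 0 symbols changed. Intensities were log2-transformed and quantile-normalized over 10 arrays in limma 3.58.1 (R 4.3.3); 2 columns were not used, and 5713 probes (65.4%) had a value on all others. Each probe was fitted with culture as a block and an IL-1β term per genotype (lmFit, eBayes). Genotypes were compared through the means of 4 groups, culture being a random block (statmod 1.5.0, correlation 0.388, or 0.452 with the trend removed). Tests are two-sided with Benjamini-Hochberg adjustment over all tested probes and a threshold of 0.05.

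The position trend was removed as follows: the probe order was read as 23 plates of 16 by 24 wells, which is inferred from the values, and for each array the departure from the all-array mean was fitted over row and column (robust local linear loess, span 0.2), separately up to and after plate 11, and subtracted.

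Pairing comes from the design text and the replicate numbers; deviations of a culture's arrays from their group means correlated at r = 0.468, 0.582 and 0.261 in wild-type and 0.562 in IL-1R1-/- cultures (with 2 cultures these mirror each other). Genotype differences of the 3 probes are printed without p-values, since they share wild-type arrays with the comparison that chose the genes. The genes, lists and tests were chosen with earlier results of these data known; the CCAAT, Sp1 and TATA motifs were added to the promoter search after its sequence was seen. Named list genes are those past the threshold, the 4 highest and 4 lowest per genotype by the mean over probes, and 7 set ones where measured. The glutamine and glutamate genes that could be fitted only with gaps kept are named in addition. On simulated data only the wild-type IL-1β term of the paired fit was tried, without and with an added position trend. The other comparisons were not tried in this way, and the outcome is not given here. The alternatives were other scalings, a background subtraction, a filter on dim probes, probes with gaps, no culture block, all columns, each genotype alone and each pair left out.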

Additional observations from a re-analysis of the deposited data

Results flagged for a closer look

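At Slc38a1 every wild-type culture was lower and every IL-1R1-/- culture higher with IL-1β, and the response differed by -1.40 (log2, wild-type minus IL-1R1-/-). The same held for Glul probe 2342, with -0.90. With median centring these values were -0.91 and -0.43. Neither difference was tested, because the wild-type response it contains was used to choose the genes. With the position trend removed Glul probe 2342 no longer met this description, since IL-1R1-/- replicate 2 had -0.27, whereas Slc38a1 still did. In the deposited intensities IL-1R1-/- replicate 2 was lower at both probes, by log2 ratios of -0.35 and -0.44.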

How the results depend on the processing

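Values are log2 differences unless they are counts of called probes, and for none of the changes below was the cause tested. In wild-type glia Slc38a1 (-1.15 to -0.69) and Glul probe 2342 (-1.10 to -0.41) were lower under all 15 settings. Some of these leave the wild-type difference as it was: without dim probes, the culture block or an IL-1R1-/- pair, and with 1 genotype alone. The IL-1R1-/- response of the 3 probes passed under none of 15 (lowest limma adjusted p = 0.293, 0.351 and 0.584). With the position trend removed Slc38a1 had -0.80 in wild-type glia and a genotype difference of the response of -1.05, Glul probe 2342 had -0.34 for the latter, and its IL-1R1-/- response and genotype difference under IL-1β turned to -0.13 and -0.24. With median centring the genotype difference of the Slc38a1 response was -0.91 and its IL-1R1-/- response -0.02, and Glul probe 2342 had -0.31 in IL-1R1-/- glia, -0.43 for the difference of the responses and -0.10 between genotypes under IL-1β. With both together, a setting chosen after seeing the data, Slc38a1 had -0.69 in wild-type glia, -0.11 in IL-1R1-/- glia, -0.59 for the difference of these and 0.09 between genotypes with vehicle, and Glul probe 2342 had -0.44 in IL-1R1-/- glia, 0.03 for the difference of the responses and -0.32 between genotypes under IL-1β. Without normalization the difference of the Slc38a1 response was -0.93 and the IL-1R1-/- response of Glul probe 2342 -0.28, with -0.44 for its difference of the responses. The genotype differences then carry the scales of whole arrays, at 1.68, 1.26 and 1.37 with vehicle for Slc38a1 and Glul probes 2342 and 6628, and 1.75 under IL-1β for probe 6628. Without the copied columns and both pairs they came from, probe 6628 had 0.12 in wild-type glia and 0.10 for the difference of the responses. The culture correlation could not be estimated from the 6 arrays left, so genotype differences used that of all 10 arrays, a choice made after seeing the data, with the lone IL-1R1-/- pair assumed to vary like the wild-type pairs. They were -0.09, -0.72 and -0.12 with vehicle and 1.17, 0.43 and -0.22 under IL-1β. The setting with all 12 columns gives no value for the 3 probes, which are missing in the copied columns.

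With 1 culture pair left out in turn, the wild-type difference ran from -1.10 to -0.93 for Slc38a1, -1.10 to -0.63 for Glul probe 2342 and -0.46 to 0.12 for probe 6628 (0.12 without wild-type replicate 1, 0.03 without replicate 2). The genotype difference of the response ran from -1.61 to -1.20, -1.16 to -0.69 and -0.67 to -0.09. In IL-1R1-/- glia the response ran from 0.17 to 0.58, 0.05 to 0.06 and 0.02 to 0.40, with vehicle the genotypes differed by -0.81 to -0.14, -1.35 to -0.43 and -0.53 to -0.25, and under IL-1β by 0.80 to 1.06, -0.45 to 0.47 and -0.34 to 0.21. Below 0 at probe 2342 under IL-1β were -0.02 and -0.06 without wild-type replicates 1 and 3 and -0.45 without IL-1R1-/- replicate 2, and above 0 at probe 6628 was 0.21 without wild-type replicate 3.

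Of all probes, limma called 353 for IL-1β in wild-type glia, 23 with the trend removed, 633 with probes that have gaps, 14 with no replicate block, 150 with all 12 columns, 69 without the copies and both source pairs, 175 with 1 genotype alone and 28 to 203 with a pair left out (28, 53 and 203 without wild-type replicates 1, 2 and 3, and 175 without either IL-1R1-/- pair). In IL-1R1-/- glia it called 0, but 177 with median centring, 153 without normalization and 108 with that genotype alone, and 0 with any pair left out. Between genotypes it called 1 with vehicle, 102 with median centring, 0 to 7 with a pair left out (7 without wild-type replicate 2), and 0 with the trend removed, without normalization, with the lowest intensity subtracted, without dim probes, with gaps kept, with all 12 columns or without the copies and both source pairs. Under IL-1β it called 4, 0 with median centring, without normalization or without the copies and both source pairs, 2 with gaps kept, 2 with no replicate block and 0 to 6 with a pair left out. Of the glutamine and glutamate list the 1 call in wild-type glia, Slc1a5, became 0 with the trend removed, with no replicate block and without wild-type replicate 1 or 2. With all 12 columns the count was also 0, but that setting gives no value for Slc1a5. In IL-1R1-/- glia the count of 0 became 1 with that genotype alone. In IL-1R1-/- glia the pairing block changed no call of the 3 probes. In wild-type glia, where the 3 probes were not tested, limma called 93 of all probes lower with the block and 0 without it.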
